A study of Bos taurus with 53 samples.

Results

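The comparison described here set extraembryonic tissue of bovine day 14 embryos from oocytes matured under high palmitic acid against the same tissue from oocytes matured without fatty acids. It comprised 12 of the 53 libraries of the study: 8 labelled HIGH PA and 4 labelled CONTROL, all from ovoid or tubular embryos. Members were chosen from the tissue, treatment and morphology labels, and no measured value entered the choice. CONTROL oocytes were matured with neither fatty acids nor solvent. HIGH PA oocytes were matured with 150 µM palmitic, 28 µM stearic and 21 µM oleic acid in 0.45% ethanol. Another medium, BASAL, held 23 µM palmitic acid with the same stearic and oleic acid and the same ethanol. Its 13 extraembryonic libraries of sufficient depth entered the fit to share the estimate of the spread. Their levels are given in the text for part of the genes. CONTROL therefore differed from HIGH PA in the solvent and in 3 fatty acids, and BASAL differed from HIGH PA in palmitic acid alone. In all groups the exposure ended with maturation: oocytes were fertilised and cultured in vitro in common media, and blastocysts were placed in recipient cows. On day 14 they were flushed and dissected. All 4 CONTROL embryos came from recipient cow 813, which received CONTROL embryos on a single occasion, and all 4 libraries carried the mark of sequencing lane 4. HIGH PA embryos came from cows 07 (3 embryos), 13 (2), 72 (2) and 813 (1). Embryos of a cow in a medium were taken to share a flush, so the p-values measure the spread between embryos. For CONTROL, medium and flush cannot be told apart. Lane 4 also held HIGH PA replicates 2 and 6 and part of the BASAL libraries, so lane did not coincide with medium.

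On day 14 the bovine conceptus is elongating from an ovoid to a tubular form. Its extraembryonic part is a trophectoderm epithelium lined by hypoblast, which secretes interferon tau as the signal for maternal recognition of pregnancy. Trophectoderm takes up and stores lipid, and fatty acids can act on it both as fuel and as ligands of the PPAR receptors. Palmitic acid is the main saturated fatty acid of blood and follicular fluid, and in excess it is known as a trigger of endoplasmic reticulum stress and oxidative stress in many cell types.

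The 12 libraries held 3883850 to 19533821 exon reads. HIGH PA had 4 tubular and 4 ovoid embryos, 7 of them male, and CONTROL had 3 tubular and 1 ovoid, 3 of them male. Trophectoderm markers were abundant in every library: all 12 of the listed markers in the table had reads, with a summed level of 19485 to 33313 CPM (counts of a gene per 1000000 exon reads) in HIGH PA and 18396 to 29133 in CONTROL. Hypoblast markers summed to 1130.1 ± 269 and 1089 ± 276 CPM (SD, n = 8 and 4), most of it APOA1 and COL4A1. GATA4 and SOX17 had reads in all 12 libraries and TTR in 0. TF and CUBN had reads in 1 HIGH PA library each and in 0 CONTROL libraries. The disc marker SLC7A3 had 0 reads in all 12 libraries, as did T, which marks the primitive streak. Epiblast markers summed to 59.3 and 59.1 CPM, most of it SALL4, and streak and mesoderm markers to 40.6 and 46.2 CPM. Of 16 markers of maternal blood and immune cells 7 were at 0 in all 12 libraries, PTPRC and HBB among them, and the list summed to 4.38 to 24.5 CPM in HIGH PA and 4.84 to 9.13 in CONTROL. HIGH PA replicates 1, 3 and 6 had a column name with an added mark 2, whose meaning the labels do not give. Replicates 3 and 6 stood apart from the other HIGH PA and all CONTROL libraries on the first principal component of the extraembryonic libraries (54.2% of variance), and mitochondrially encoded genes took 9.53% and 8.99% of their exon reads, against 3.41% to 4.01% in CONTROL. Results are therefore also given without the 3 marked libraries. All 3 came from ovoid embryos, and replicate 1 was the only female of HIGH PA. Leaving them out thus also changed the shape and sex of the HIGH PA group, and these cannot be told apart from the mark. BASAL replicates 5, 6 and 11 carried the mark too, and the fits without marked libraries left them out as well. The shared estimate of the spread therefore also changed in those fits. What the mark stands for, and its part in the results beyond leaving these libraries out, was not tested. In bulk tissue fewer cells of a type and less RNA per cell cannot be told apart.

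At the level of single genes, 0 of 10961 genes tested passed a Benjamini-Hochberg adjusted p of 0.05 in edgeR's quasi-likelihood test (0.0% called), and the lowest adjusted p was 0.593. At an unadjusted p under 0.05 there were 920 genes (8.39%), 573 with a higher fitted level in HIGH PA (5.23%) and 347 with a lower one (3.17%). The CPM of the 8 HIGH PA libraries did not overlap those of the 4 CONTROL libraries for 144 genes (1.31%). HIGH PA was above CONTROL for 50 of these (0.456%) and below for 94 (0.858%). Without the marked libraries the groups of 5 and 4 did not overlap for 443 of 10853 genes (4.08%). Of these 186 were higher (1.71%) and 257 lower (2.37%). In that fit, which also lacked the marked BASAL libraries, 0 genes passed the adjusted threshold. The median standard error of a log2 fold change was 0.269, so the 95% interval of a typical gene reached 0.526 to either side. Both values treat the embryos of a flush as independent. With embryos of a flush correlated (estimate 0.409, limma-voom), 0 genes were called and 96 had an unadjusted p under 0.05. The standard error of SGK1, for example, was 0.382 there and 0.254 in the main fit. Every gene described below missed the adjusted threshold, with an adjusted p between 0.593 and 0.98 in edgeR's test. The values are therefore given as measured levels, and each log2 fold change is HIGH PA minus CONTROL with its standard error (SE).

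Genes were picked from features with a gene name. The 8 of lowest p with lower HIGH PA levels included the kinase gene SGK1, the checkpoint gene RAD1 and the repair gene EXOG. SGK1 (ENSBTAG00000004269, chromosome 9, 73305312 to 73310869 in UMD3.1), a kinase induced by serum and glucocorticoids that controls epithelial sodium transport, was at 176, 208, 158 and 187 CPM in the 4 CONTROL libraries and at 55.5 to 105 CPM (median 81.9) in HIGH PA. All 8 HIGH PA libraries lay below the lowest CONTROL library. The log2 fold change was -1.10 ± 0.25 (SE), and the adjusted p in edgeR's test was 0.593. WDCP (ENSBTAG00000016987, chromosome 11, 75071678 to 75078888) encodes a WD repeat and coiled-coil protein. It had the lowest p of any feature with a gene name (0.000134 unadjusted, edgeR). Its levels were 9.46, 6.51, 8.26 and 9.91 CPM in CONTROL and 2.63 to 4.88 CPM (median 3.51) in HIGH PA, again without overlap, with a log2 fold change of -1.14 ± 0.25. RAD1, a subunit of the DNA damage checkpoint clamp, was at 24.8, 30.9, 34 and 31.5 CPM in CONTROL and 13.9 to 19.9 CPM (median 15.5) in HIGH PA. EXOG, a mitochondrial nuclease that takes part in DNA repair, was at 10.1, 10.3, 11 and 10.5 CPM in CONTROL and 3.38 to 8.54 CPM (median 5.45) in HIGH PA. For RAD1 and EXOG every HIGH PA library was below every CONTROL library, and the log2 fold changes were -0.88 ± 0.24 and -0.77 ± 0.21. The zinc finger gene ZNF2 had 6.03, 5.01, 5.17 and 6.22 CPM in CONTROL and 1.42 to 3.75 CPM (median 2.73) in HIGH PA. TRIM52, of the tripartite motif family, had 5.49, 5.01, 4.82 and 7.19 CPM in CONTROL and 2.2 to 3.6 CPM (median 2.97) in HIGH PA. PIH1D2 had 2.74, 2.17, 1.72 and 2.53 CPM in CONTROL and 0 to 1.5 CPM (median 0.758) in HIGH PA. These 3 genes also did not overlap, with log2 fold changes of -0.99 ± 0.25, -0.86 ± 0.21 and -1.41 ± 0.38. RNF219, a RING finger gene, was at 32.8, 36.6, 30 and 23.1 CPM in CONTROL and 10.4 to 24.2 CPM (median 13) in HIGH PA. There 6 of 8 HIGH PA libraries lay below all CONTROL libraries, and the log2 fold change was -0.96 ± 0.25.

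The side of higher HIGH PA levels was also read among features with a gene name. Its genes with the lowest p included a surface mucin, a lysosomal reductase, a stress transcription factor and a pair of sulfur transferases. MUC1 (ENSBTAG00000017104, chromosome 3, 15482855 to 15486936), a mucin of the apical epithelial surface, was at 4.94, 4.34, 3.33 and 4.08 CPM in CONTROL and 4.38 to 19.7 CPM (median 11.3) in HIGH PA, and 7 of 8 HIGH PA libraries exceeded every CONTROL library. Its log2 fold change was 1.45 ± 0.34. MUC1 is also made by uterine epithelium, and the list of uterine epithelial markers summed to 6.18 to 20.6 CPM in HIGH PA and 5.05 to 7.39 in CONTROL (p = 0.0242, exact two-sided permutation test, adjusted p = 0.29 over 12 library measures). Without MUC1 the list summed to 1.66 ± 0.56 CPM in HIGH PA (SD, n = 8) and 2.07 ± 0.884 in CONTROL (SD, n = 4), and PAEP, PIGR, HOXA10 and HOXA11, 4 of its 10 markers, were at 0 in all 12 libraries. IFI30 (ENSBTAG00000018349, chromosome 7, 4981194 to 4984553), a lysosomal thiol reductase, was at 65.1, 56.3, 65.3 and 60.8 CPM in CONTROL and 105 to 168 CPM (median 122) in HIGH PA. These groups did not overlap, and the log2 fold change was 1.08 ± 0.28. DMWD, a WD repeat gene, was at 17.8, 16.9, 18.5 and 18.1 CPM in CONTROL and 21.4 to 32.4 CPM (median 30.3) in HIGH PA, also without overlap (0.73 ± 0.18 on the log2 scale). MAFF, a small Maf transcription factor that pairs with NRF proteins at antioxidant response elements, was at 7.54, 11.7, 5.17 and 13.2 CPM in CONTROL and 21.5 to 68.3 CPM (median 31.6) in HIGH PA. All 8 HIGH PA libraries were above CONTROL, with a log2 fold change of 2.09 ± 0.56. TST, the mitochondrial sulfurtransferase rhodanese, was at 0.686, 0.668, 0.574 and 0.194 CPM in CONTROL and 0.388 to 4.35 CPM (median 2.42) in HIGH PA, and 7 of 8 HIGH PA libraries lay above CONTROL. TSTD1, a small relative of TST, was at 5.07, 6.51, 5.28 and 5.83 CPM in CONTROL and 6.8 to 18.8 CPM (median 9.52) in HIGH PA, without overlap. The log2 fold changes were 2.16 ± 0.53 for TST and 0.92 ± 0.24 for TSTD1. EVA1B was low in all libraries, at 0.411, 0.334, 0.344 and 0.583 CPM in CONTROL and 1.03 to 3.06 CPM (median 1.99) in HIGH PA, without overlap. OSBPL5, an oxysterol-binding protein family gene that is imprinted in placenta, was at 14.5, 22.7, 25.7 and 19.4 CPM in CONTROL and 21.1 to 48.7 CPM (median 34.8) in HIGH PA. For OSBPL5 7 of 8 HIGH PA libraries lay above CONTROL, with a log2 fold change of 0.81 ± 0.21.

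**Figure D1:**
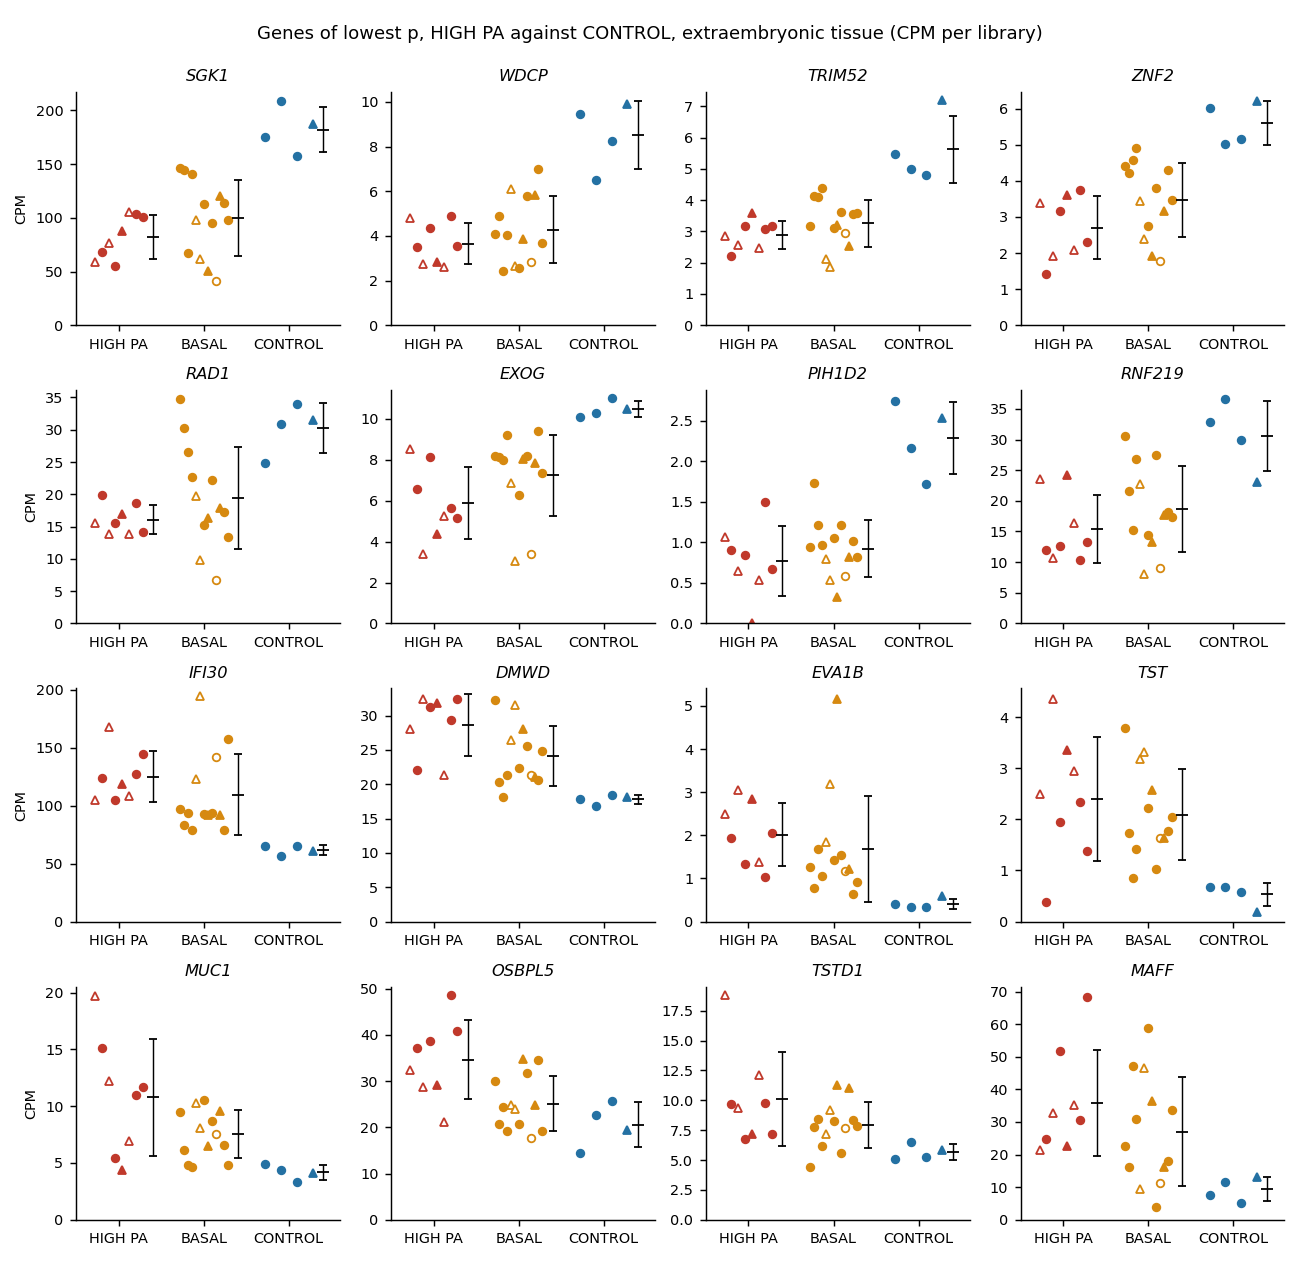
CPM of the 8 genes of lowest p in each direction, among features with a gene name. Each extraembryonic library is shown by medium (y axis from 0, circles tubular, triangles ovoid, open symbols libraries with the mark 2, black bar mean ± SD with n = 8 HIGH PA, 13 BASAL and 4 CONTROL). All 8 HIGH PA libraries sit below the CONTROL libraries for SGK1, WDCP, TRIM52, ZNF2, RAD1, EXOG and PIH1D2, and all 13 BASAL libraries are below CONTROL for SGK1, TRIM52, ZNF2 and EXOG.

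These 16 genes were chosen by their values against the same 4 CONTROL libraries, so their BASAL levels beside CONTROL are given as a description. SGK1 was at 41.2 to 146 CPM (median 98.1) in BASAL, and all 13 BASAL libraries were below the lowest CONTROL library. The same held for TRIM52, ZNF2 and EXOG in 13 of 13 BASAL libraries, and for WDCP and PIH1D2 in 12 of 13. IFI30, EVA1B and TST were above every CONTROL library in 13 of 13 BASAL libraries, and DMWD in 12 of 13. The log2 fold change of HIGH PA minus BASAL was -0.29 ± 0.20 for SGK1, -0.20 ± 0.20 for WDCP and 0.13 ± 0.21 for IFI30 (SE). MUC1 and OSBPL5 had larger values on this contrast, 0.58 ± 0.24 and 0.46 ± 0.15. Across all genes 0 of 10961 were called between HIGH PA and BASAL (0.0%; lowest adjusted p 0.0798; 274 at an unadjusted p under 0.05, 2.5%, of which 176 higher, 1.61%, and 98 lower, 0.894%) and 0 between BASAL and CONTROL (0.0%; lowest adjusted p 0.864; 385 at an unadjusted p under 0.05, 3.51%, of which 277 higher, 2.53%, and 108 lower, 0.985%) in edgeR's test. Both contrasts share libraries with the main comparison. Among genes described below, HIGH PA minus BASAL was 0.25 ± 0.58 for PLAU and 0.39 ± 0.49 for HMOX1. It was 0.0 ± 0.21 for ATF4 and 0.12 ± 0.29 for ETS2. For these genes 10, 9, 10 and 10 of 13 BASAL libraries lay above every CONTROL library, and 1, 0, 2 and 2 below. The same contrast was larger for STAR (1.26 ± 0.41), CLDN1 (1.24 ± 0.48) and FADS6 (0.80 ± 0.32).

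Of 23 matrix and protease genes tested, 3 had an unadjusted p under 0.05 on the higher side (13%, beside 5.23% of all genes) and 2 on the lower (8.7%, beside 3.17%). Each list count over all 12 libraries below stands beside these same shares of all genes. The list's median log2 fold change was 0.15, beside 0.04 over all genes tested. PLAU (ENSBTAG00000005947, chromosome 28, 29964982 to 29971029), the urokinase that activates plasminogen, was at 59, 60.3, 63.4 and 105 CPM in CONTROL and 159 to 1543 CPM (median 365) in HIGH PA. Every HIGH PA library lay above every CONTROL library. The log2 fold change was 3.04 ± 0.89, with 3.60 ± 0.86 without the marked libraries. CTGF, a matricellular growth factor, was at 341, 222, 258 and 186 CPM in CONTROL and 77.7 to 162 CPM (median 131) in HIGH PA. CYR61, its close relative and like it a target of YAP signalling, was at 626, 503, 585 and 551 CPM in CONTROL and 224 to 573 CPM (median 315) in HIGH PA. CTGF did not overlap between the groups, and for CYR61 7 of 8 HIGH PA libraries were below CONTROL. Their log2 fold changes were -0.97 ± 0.34 and -0.62 ± 0.29.

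HMOX1 (ENSBTAG00000015582, chromosome 5, 73980775 to 73987841), the heme oxygenase induced by oxidative stress, was at 104, 72.1, 81.3 and 149.7 CPM in CONTROL and 184 to 983 CPM (median 260.1) in HIGH PA, without overlap. Its log2 fold change was 2.14 ± 0.72. NFE2L2, which encodes NRF2, the transcription factor that induces HMOX1, was at 126, 139.7, 141 and 146 CPM in CONTROL and 64.6 to 141 CPM (median 104) in HIGH PA, with 7 of 8 HIGH PA libraries below CONTROL. HMOX1 and NFE2L2 thus lay on opposite sides of CONTROL. They were the members of the antioxidant list with an unadjusted p under 0.05 (1 higher and 1 lower of 32), and 25 of 32 members had a log2 fold change above 0, beside 54.3% of all genes tested. Among 24 hypoxia and early response genes 2 were higher (8.33%, beside 5.23% of all genes) and 2 lower (8.33%, beside 3.17%) at an unadjusted p under 0.05. FOSL1, a subunit of AP-1, was at 8.92, 9.51, 6.08 and 21.8 CPM in CONTROL and 14.9 to 70.4 CPM (median 27.8) in HIGH PA, with 7 of 8 HIGH PA libraries above CONTROL. FOS, another AP-1 subunit, was at 1095, 1008, 1219 and 820.2 CPM in CONTROL and 364 to 1018 CPM (median 445) in HIGH PA, with 7 of 8 below. The log2 fold changes of these AP-1 partners were 1.84 ± 0.62 and -0.90 ± 0.31. IER3, an early response gene, was at 189, 198, 136 and 244 CPM in CONTROL and 118 to 512 CPM (median 350.4) in HIGH PA. Of 37 growth factor and receptor genes 1 was higher and 1 lower at that p. HBEGF, a ligand of the EGF receptor, was at 46.4, 47.4, 35.7 and 88.6 CPM in CONTROL and 48.1 to 170.4 CPM (median 94.4) in HIGH PA, and the ovoid CONTROL library was the highest of its group for HBEGF, FOSL1, CDKN1A and PLAU.

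**Figure D2:**
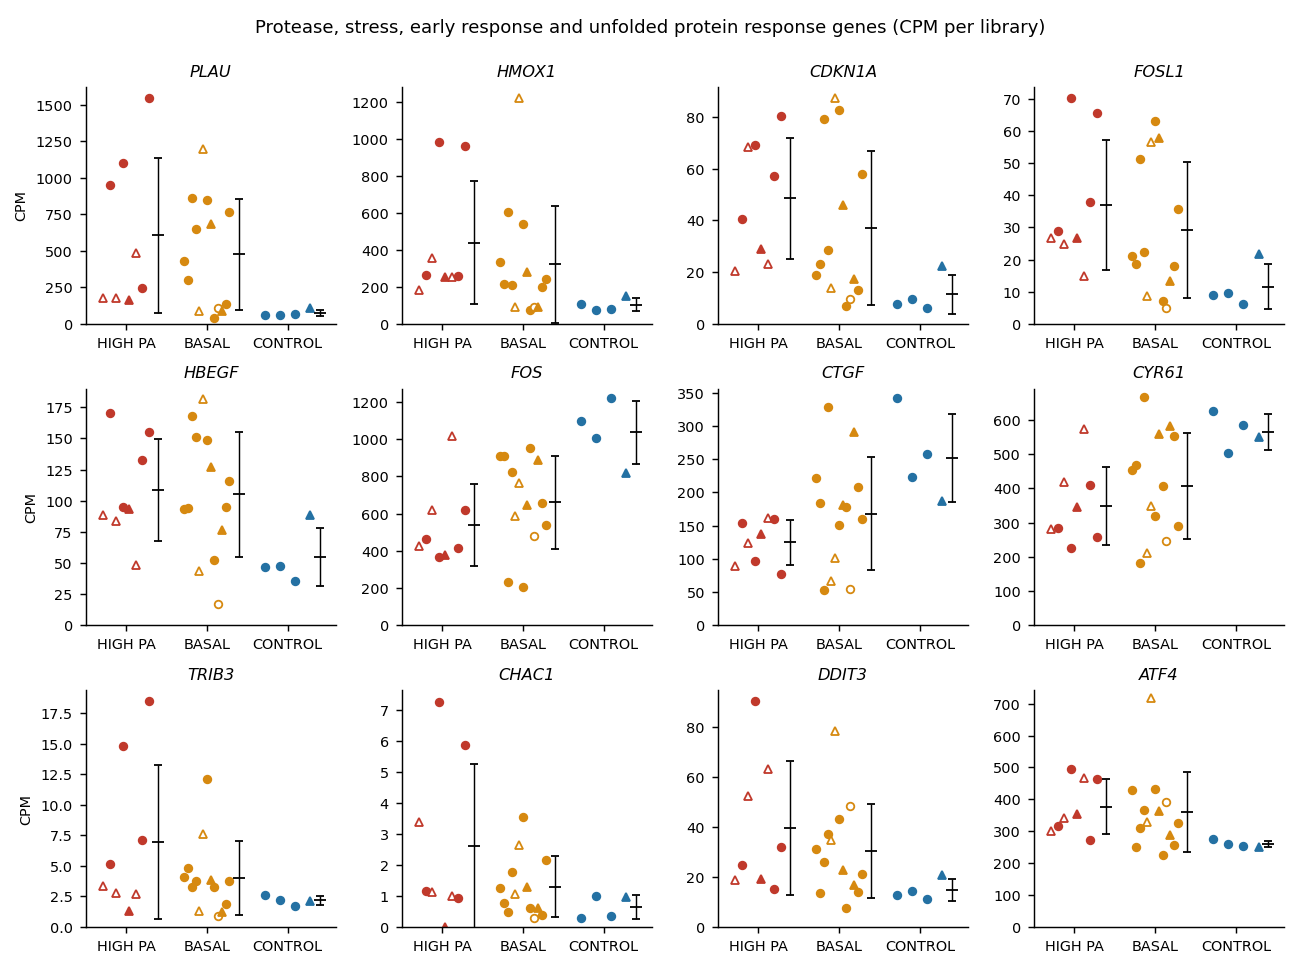
CPM of 12 protease, stress, early response and unfolded protein response genes in each extraembryonic library, by medium (y axis from 0; circles tubular, triangles ovoid, open symbols libraries with the mark 2, black bar mean ± SD). HIGH PA libraries are all above CONTROL for PLAU and HMOX1 and all below for CTGF, and the PLAU levels of HIGH PA run over 159 to 1543 CPM (median 365).

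The unfolded protein response list had 4 of 32 members with an unadjusted p under 0.05 on the higher side (12.5%, beside 5.23% of all genes) and 0 on the lower, while its median log2 fold change was 0.02. The 4 genes belong to the branch that runs through the transcription factor ATF4. Other listed genes of that branch, ATF3, ATF5, ASNS, SESN2 and PPP1R15A, were not among the members at that p. ATF4 was at 274, 261, 255 and 252 CPM in CONTROL and 274 to 494 CPM (median 347) in HIGH PA, with 7 of 8 HIGH PA libraries above CONTROL and a log2 fold change of 0.59 ± 0.28. DDIT3, the factor CHOP that acts below ATF4, was at 12.6, 14.4, 11.2 and 20.8 CPM in CONTROL and 15 to 90.6 CPM (median 28.3) in HIGH PA (1.53 ± 0.60 on the log2 scale). TRIB3, a pseudokinase induced by ATF4 and CHOP, was at 2.61, 2.17, 1.72 and 2.14 CPM in CONTROL and 1.29 to 18.5 CPM (median 4.28) in HIGH PA. CHAC1, which degrades glutathione, was at 0.274, 1, 0.344 and 0.972 CPM in CONTROL and 0 to 7.28 CPM (median 1.15) in HIGH PA. In both TRIB3 and CHAC1 a minority of HIGH PA libraries were far above the rest and 1 was below every CONTROL library. Among 18 amino acid transporters, another set with ATF4 targets, 0 were higher and 1 was lower at an unadjusted p under 0.05.

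The cell cycle list had 2 members higher (5.26%, beside 5.23% of all genes) and 3 lower (7.89%, beside 3.17%) of 38 at an unadjusted p under 0.05. CDKN1A, the p21 inhibitor of cyclin-dependent kinases, was at 7.68, 9.51, 5.97 and 22.4 CPM in CONTROL and 20.4 to 80.5 CPM (median 49) in HIGH PA, with 7 of 8 HIGH PA libraries above CONTROL and a log2 fold change of 2.31 ± 0.70. CCNE2, a cyclin of entry into DNA synthesis, was at 17.6, 15, 17.6 and 18.1 CPM in CONTROL and 6.77 to 17.6 CPM (median 8.69) in HIGH PA. CDK1, the mitotic kinase, was at 113, 118, 122 and 78.9 CPM in CONTROL and 49.8 to 111 CPM (median 73.7) in HIGH PA, and RRM2, a subunit of ribonucleotide reductase, at 791, 621, 710 and 621 CPM and 413 to 738 CPM (median 494). The HIGH PA libraries below every CONTROL library numbered 7 for CCNE2, 5 for CDK1 and 6 for RRM2. E2F1, a transcription factor of the same phase, lay on the other side: 8.37, 8.85, 8.49 and 8.36 CPM in CONTROL and 7.98 to 16 CPM (median 11.7) in HIGH PA. In the p53 and apoptosis list 2 members were higher and 1 lower of 24. Among 34 genes of DNA methylation and chromatin, 2 were higher and 1 was lower. KDM1B, a histone demethylase required in the oocyte for imprinting, was at 34.6, 28.9, 36.8 and 30.7 CPM in CONTROL and 7.25 to 26.9 CPM (median 20) in HIGH PA, without overlap and with a log2 fold change of -0.82 ± 0.36. KDM3A, another histone demethylase, was at 57.1, 67.6, 58.3 and 55.2 CPM in CONTROL and 61.3 to 95.5 CPM (median 78.7) in HIGH PA. Without the marked libraries 7 genes of the chromatin list were higher and 3 lower at that p (20.6% and 8.82%, beside 8.33% and 6.54% of all genes in that fit). Of 9 imprinted genes tested 1, OSBPL5, was higher and 0 were lower.

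Trophectoderm regulators were split. Of 20 tested, 3 were higher (15%, beside 5.23%) and 1 lower (5%, beside 3.17%) at an unadjusted p under 0.05, and the median log2 fold change was 0.03. ETS2, which activates the interferon tau promoter, was at 79.4, 70.9, 79.4 and 85.1 CPM in CONTROL and 90.4 to 324 CPM (median 135) in HIGH PA, without overlap (1.17 ± 0.40 on the log2 scale). GATA3, a trophectoderm lineage factor, was at 76.3, 86, 71.9 and 83.2 CPM in CONTROL and 35 to 72.5 CPM (median 46.1) in HIGH PA, with 7 of 8 HIGH PA libraries below CONTROL (-0.66 ± 0.24). GATA2, its paralog, was at 224, 204, 198 and 300.3 CPM in CONTROL and 234 to 493 CPM (median 300.3) in HIGH PA, and ELF3, an epithelial ETS factor, at 74.9, 31.7, 65.8 and 66.9 CPM and 45.4 to 214 CPM (median 102). For GATA2 4 of 8 and for ELF3 6 of 8 HIGH PA libraries were above CONTROL. Of 18 listed secreted products of trophoblast, 2 were found by name in the table and 1, IFNT2, had enough reads to test. IFNT2 was at 2875, 4101, 2760.1 and 659 CPM in CONTROL and 454 to 9739.8 CPM (median 3534) in HIGH PA, a range in HIGH PA that enclosed CONTROL, with a log2 fold change of 0.47 ± 0.52. Interferon tau genes form a family of near-identical copies, so the reads of IFNT2 may be shared among them. In 8 interferon-stimulated genes 0 were higher and 0 lower at that p.

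Epithelial junction, keratin and integrin genes had 3 members higher (7.89%, beside 5.23% of all genes) and 1 lower (2.63%, beside 3.17%) of 38. All 4 were claudins, the proteins that seal tight junctions. CLDN4 was at 692, 636, 515 and 951 CPM in CONTROL and 851 to 1813 CPM (median 1231) in HIGH PA, with 6 of 8 HIGH PA libraries above CONTROL and a log2 fold change of 0.96 ± 0.28. CLDN7 was at 203, 189.8, 182 and 245 CPM in CONTROL and 198 to 385 CPM (median 325) in HIGH PA, and CLDN12 at 78.2, 60.4, 71.5 and 46.8 CPM and 27.9 to 59.7 CPM (median 37.6). The log2 fold change was 0.65 ± 0.25 for CLDN7 and -0.57 ± 0.22 for CLDN12. CLDN1 was low, with 0.549, 0.334, 0 and 3.11 CPM in CONTROL and 0.542 to 4.09 CPM (median 2.15) in HIGH PA. In the list of sodium pump, aquaporin and ion exchange genes (14 tested) AQP3, a channel for water and glycerol, was the higher and SGK1 the lower member at that p. AQP3 was at 8.09, 3, 5.97 and 13.8 CPM in CONTROL and 3.94 to 49.6 CPM (median 24.5) in HIGH PA. Hypoblast and yolk sac genes had 2 higher and 0 lower of 22, with 12 of the 22 below 0 and a median log2 fold change of -0.01. APOA2, an apolipoprotein, was at 2.88, 1.5, 0.689 and 5.83 CPM in CONTROL and 2.41 to 23.7 CPM (median 8.04) in HIGH PA (1.97 ± 0.79, or 0.75 with recipient cow as a block). DAB2, an endocytic adaptor, missed that p but did not overlap, at 1037, 1028, 1042 and 1048 CPM in CONTROL and 792 to 1007 CPM (median 854) in HIGH PA (-0.16 ± 0.13).

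Lipid genes showed small counts on both sides. Of 21 genes of fatty acid synthesis and desaturation 2 were higher and 1 lower at an unadjusted p under 0.05, with a median log2 fold change of 0.29. SREBF1, the transcription factor that drives fatty acid synthesis, was at 31.8, 38.4, 42.2 and 45.7 CPM in CONTROL and 41.6 to 134 CPM (median 89.7) in HIGH PA, with 7 of 8 HIGH PA libraries above CONTROL and a log2 fold change of 1.15 ± 0.34. FADS6, of the desaturase family, was at 0.686, 1, 1.03 and 1.55 CPM in CONTROL and 1.59 to 3.91 CPM (median 2.64) in HIGH PA, without overlap (1.45 ± 0.47). HACD3, a dehydratase of fatty acid elongation, was at 249.6, 266, 251 and 174 CPM in CONTROL and 132 to 237 CPM (median 178) in HIGH PA (-0.40 ± 0.14). In fatty acid oxidation and PPAR targets 3 were higher (8.33%, beside 5.23% of all genes) and 1 lower (2.78%, beside 3.17%) of 36. ACOX3, a peroxisomal oxidase, was at 1.65, 1.17, 1.26 and 1.94 CPM in CONTROL and 1.55 to 5.69 CPM (median 2.67) in HIGH PA, whereas ACADM, the mitochondrial medium-chain dehydrogenase, was at 72.6, 64.6, 77.4 and 47.2 CPM and 30.7 to 70.5 CPM (median 39.8). The nuclear receptor PPARD was at 14.3, 15.2, 15.7 and 24.1 CPM in CONTROL and 15.6 to 36 CPM (median 25.6) in HIGH PA, and its partner RXRB at 20.3, 19.7, 16.6 and 25.7 CPM and 19.5 to 31.4 CPM (median 27). The log2 fold changes were 0.97 ± 0.32 for ACOX3, -0.52 ± 0.21 for ACADM, 0.69 ± 0.26 for PPARD and 0.44 ± 0.16 for RXRB.

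PPARG, the PPAR receptor tied to trophectoderm elongation, ranged over 1.03 to 45.5 CPM (median 14.1) in HIGH PA and was at 15.4, 33.2, 18.5 and 22.9 CPM in CONTROL. PLIN2, the coat protein of lipid droplets, ranged over 15.8 to 113 CPM (median 79.2) in HIGH PA and was at 71.2, 69.4, 72.8 and 102 CPM in CONTROL. Both HIGH PA ranges enclosed CONTROL, and the log2 fold changes were -0.18 ± 0.58 and 0.03 ± 0.36, whose intervals hold changes in either direction. Fatty acid uptake and storage had 1 member higher and 0 lower of 29. That member, DGAT1, which makes triglyceride, was at 14.3, 14.4, 10.9 and 21.4 CPM in CONTROL and 14.7 to 37.4 CPM (median 21) in HIGH PA. Cholesterol synthesis and uptake had 1 higher and 0 lower of 27. Prostaglandin and steroid synthesis had 1 higher and 0 lower of 17, with a median log2 fold change of 0.37, or 0.12 without the marked libraries. STAR, which carries cholesterol into mitochondria, was at 6.17, 5.34, 4.02 and 6.22 CPM in CONTROL and 2.34 to 50.7 CPM (median 13.4) in HIGH PA, with 7 of 8 HIGH PA libraries above CONTROL and 1 below. The STAR log2 fold change was 1.85 ± 0.62 over all 8 and 1.02 ± 0.49 without the marked libraries. With recipient cow as a block it was 0.11 (adjusted p = 0.996, edgeR).

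**Figure D3:**
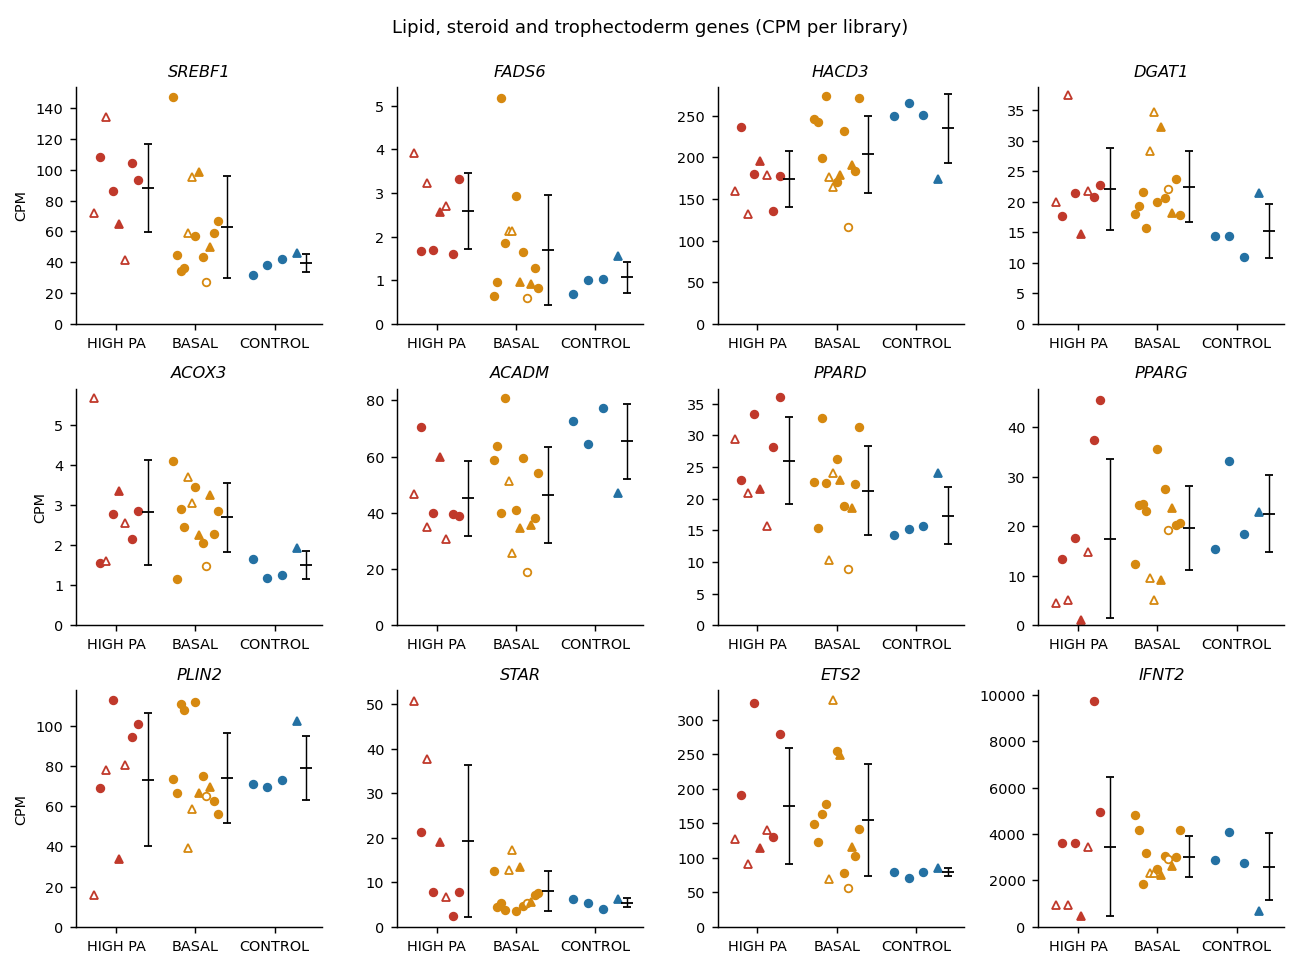
CPM of 10 lipid and steroid genes and of ETS2 and IFNT2 in each extraembryonic library, by medium (y axis from 0; circles tubular, triangles ovoid, open symbols libraries with the mark 2, black bar mean ± SD). FADS6 and ETS2 do not overlap between HIGH PA and CONTROL, and the HIGH PA ranges of PPARG, PLIN2 and IFNT2 enclose CONTROL.

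Energy metabolism gave medians that moved with the marked libraries. All 11 mitochondrially encoded genes had a log2 fold change above 0 (median 0.45) and 0 of 11 had an unadjusted p under 0.05. Without the marked libraries 0 of 11 were above 0 (median -0.09). Among cytosolic ribosomal protein genes 34 of 35 were above 0 (median 0.27), and 24 of 35 without the marked libraries (median 0.10). Nuclear genes of oxidative phosphorylation had a median of 0.16 over 51 genes, with 1 higher and 2 lower at that p. Without the marked libraries the median was -0.02 over 50 genes. There 0 were higher (0.0%, beside 8.33% of all genes in that fit) and 5 lower (10%, beside 6.54%). UQCRC2, a core subunit of respiratory complex III, was at 339.6, 332, 388 and 284 CPM in CONTROL and 184 to 317 CPM (median 278) in HIGH PA (-0.31 ± 0.14). In glycolysis and glucose transport 2 were higher and 1 lower of 24. PFKFB3, which makes the activator of phosphofructokinase, was at 100.3, 72.3, 87.7 and 94.1 CPM in CONTROL and 98.3 to 415 CPM (median 159) in HIGH PA, with 7 of 8 HIGH PA libraries above CONTROL and a log2 fold change of 1.24 ± 0.42.

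The lysosome list had the highest share of members on 1 side among lists with over 20 tested members: 5 of 31 were higher at an unadjusted p under 0.05 (16.1%, beside 5.23% of all genes) and 0 were lower, with 24 of 31 above 0 and a median log2 fold change of 0.18. Without the marked libraries 3 were higher (9.68%, beside 8.33% of all genes in that fit) and 0 lower. ATP6V1E1, a subunit of the proton pump that acidifies lysosomes, was at 167, 173, 147 and 175 CPM in CONTROL and 179 to 241 CPM (median 188) in HIGH PA, without overlap (0.38 ± 0.14). ATP6V0D1, another pump subunit, was at 157, 150.2, 153 and 183 CPM in CONTROL and 178 to 288 CPM (median 211) in HIGH PA, with 7 of 8 HIGH PA libraries above CONTROL (0.52 ± 0.18). MCOLN1, a lysosomal calcium channel, was at 80.8, 71.1, 75.2 and 101 CPM in CONTROL and 82.4 to 152 CPM (median 112) in HIGH PA. CTSB, a cathepsin, was at 294, 346, 358 and 341 CPM in CONTROL and 335 to 596 CPM (median 405) in HIGH PA. The log2 fold changes of MCOLN1 and CTSB were 0.57 ± 0.19 and 0.43 ± 0.17. Inflammation genes had 2 higher (18.2%, beside 5.23% of all genes) and 0 lower of 11, a short list. MYD88, the adaptor of Toll-like receptors, was at 44, 36.2, 33.7 and 40.2 CPM in CONTROL and 37.5 to 58.5 CPM (median 52.1) in HIGH PA. In the aryl hydrocarbon receptor list 1 was higher and 1 lower of 7. The higher gene, CYP1A1, a monooxygenase induced by that receptor, was near 0 in CONTROL, at 0, 0.835, 0.115 and 0.389 CPM, and at 0.388 to 20.9 CPM (median 2.43) in HIGH PA, where replicate 4 alone gave the highest value.

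**Figure D4:**
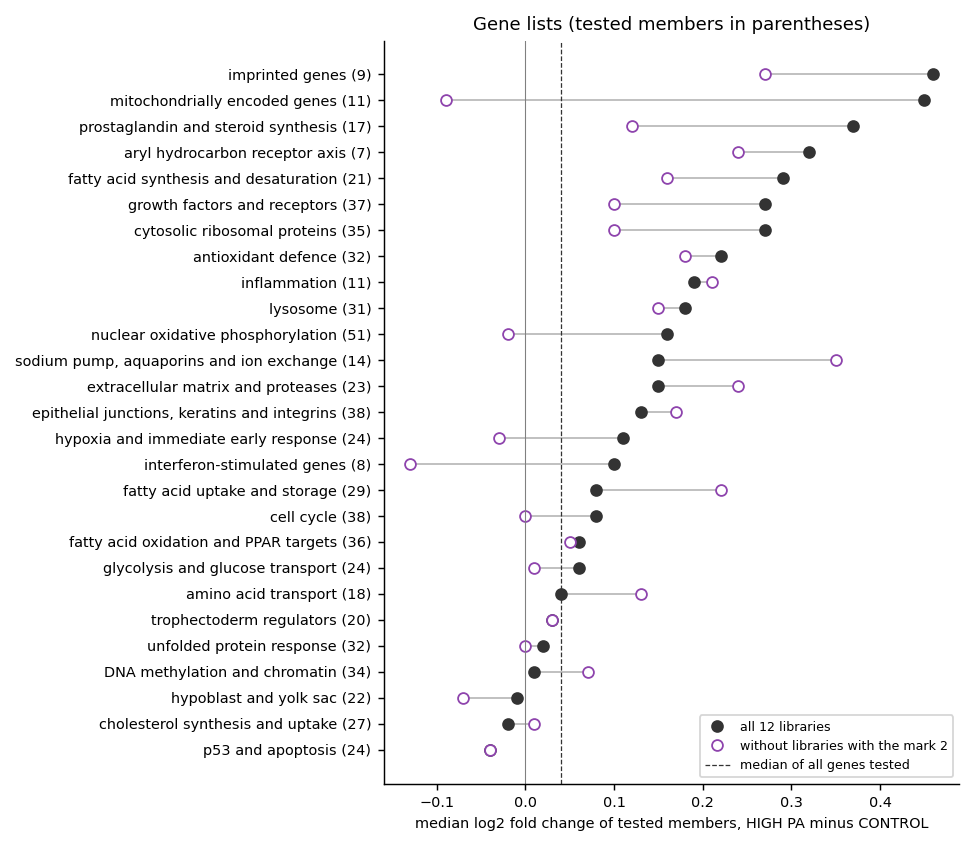
Median log2 fold change (HIGH PA minus CONTROL) of the tested members of each gene list with at least 5 tested members. Filled symbols are over all 12 libraries, and open symbols are without the marked libraries of HIGH PA and BASAL. The dashed line is the median of all genes tested. The median of the mitochondrially encoded genes goes from 0.45 to -0.09, that of the lysosome list from 0.18 to 0.15 and that of the antioxidant list from 0.22 to 0.18.

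With shape as a term, or recipient cow as a block, 0 genes were called, as over all libraries. The same held in libraries of lane 4 alone, where HIGH PA replicates 2 and 6 stood against CONTROL. There 772 of 10883 genes had an unadjusted p under 0.05 (edgeR). Fits to some other subsets of the embryos gave other counts. Among tubular embryos alone (4 HIGH PA, 3 CONTROL) 2 genes were called in edgeR's test: RNF219 was lower, with a log2 fold change of -1.40 (adjusted p = 0.00887), and CLDN4 was higher, at 1.18 (adjusted p = 0.0185). In the fit of embryos from cow 813 alone, 1 HIGH PA embryo was set against the 4 CONTROL embryos, and its spread was assumed to equal that of the other embryos of this cow. This fit compares that 1 embryo, sequenced in lane 8, with CONTROL libraries of lane 4 and is no replicated test of the medium. It marked 71 of 11102 genes (0.64%), 61 higher and 10 lower. Log2 fold changes in it were 2.07 for PLAU, 3.03 for CDKN1A, 2.34 for FOSL1, 1.79 for HMOX1 and 1.18 for IFI30. For most genes it marked, the other 7 HIGH PA embryos did not all lie on the same side of CONTROL. They did for PLAU, HMOX1 and IFI30, and 6 of 7 did for CDKN1A and FOSL1. Over all 10961 genes tested in the main fit, these 7 lay above every CONTROL library for 85 and below for 109. The genes were marked against the same 4 CONTROL libraries, so these positions are given as a description. STAR went the other way in this cow, with a log2 fold change of -1.01. With counts summed per flush (4 HIGH PA flushes, 1 CONTROL flush) 0 genes were called and 46 had an unadjusted p under 0.05.

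**Figure D5:**
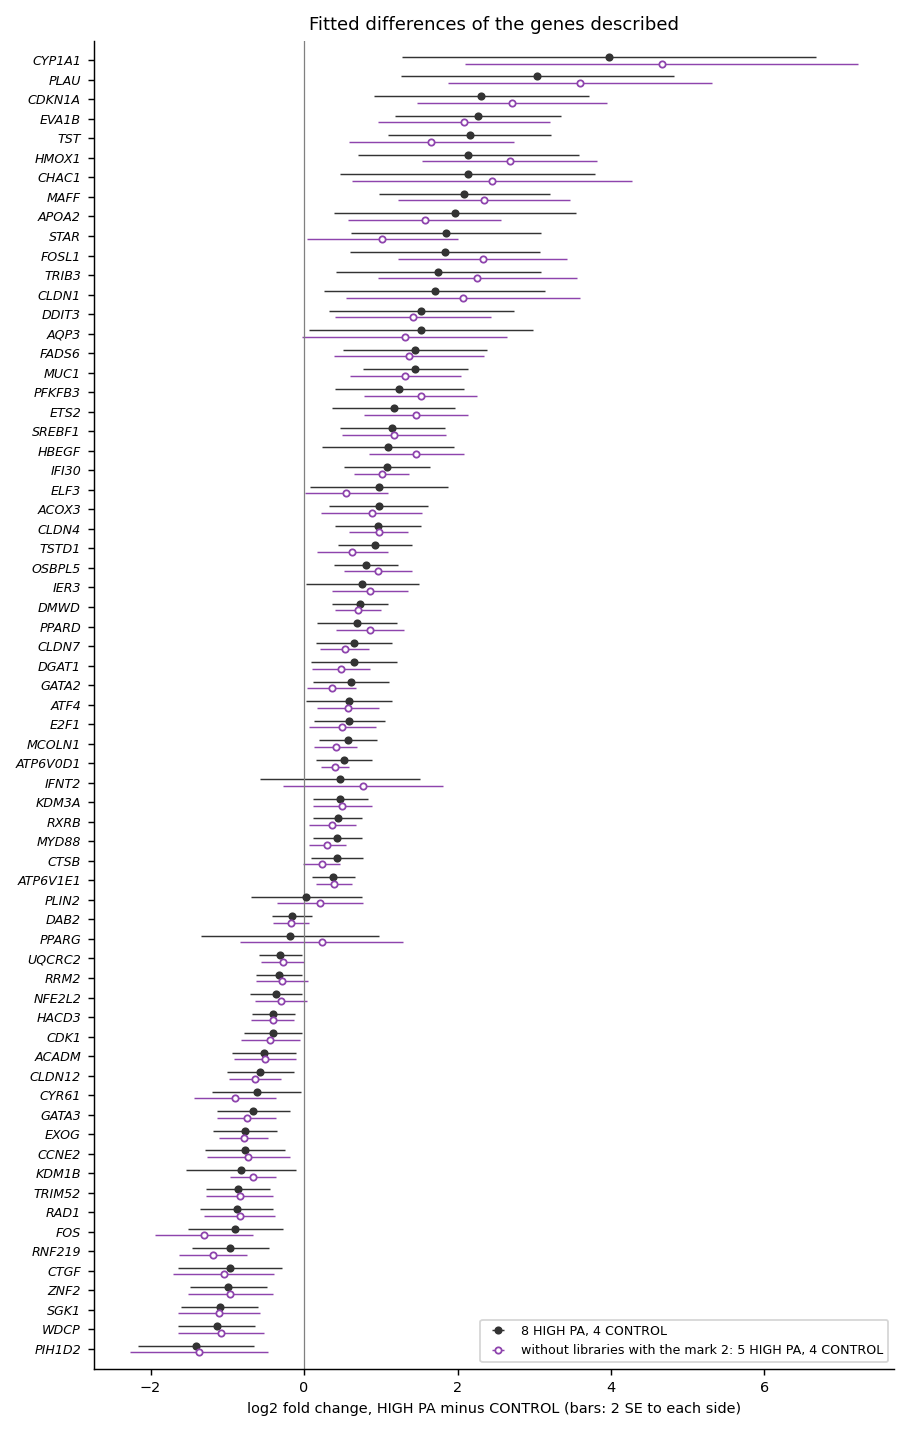
Fitted log2 fold change, HIGH PA minus CONTROL, of the genes described (x axis, bars 2 SE to each side). Filled symbols are over all 12 libraries, and open symbols are without the marked libraries of HIGH PA and BASAL. PPARG changes sign between the 2 fits, PLAU goes from 3.04 to 3.60, and 0 of the genes passed the adjusted threshold in either fit.

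The disc of the same embryos was compared to ask whether the HIGH PA effect differed between tissues. Disc libraries also held trophectoderm transcripts: KRT8, GATA2 and IFNT2 averaged 6343, 306 and 1303 CPM there. In HIGH PA extraembryonic libraries these means were 8559, 334 and 3459.5 CPM. The disc marker NNAT averaged 521 and 0.473 CPM. How far this overlap bears on the tissue difference was not tested. The 3 CONTROL embryos with both parts sequenced were tubular males. In the 22 embryos with both parts sequenced, 0 of 11909 genes were called for a difference of the HIGH PA effect between extraembryonic tissue and disc (0.0%; lowest adjusted p 0.545; 1060 at an unadjusted p under 0.05, 8.9%, of which 563 higher, 4.73%, and 497 lower, 4.17%) in edgeR's test with embryo as a block. For HMOX1 the effect was larger by 1.37 ± 0.40 (SE, log2) in extraembryonic tissue, with disc levels of 386 ± 276 CPM in HIGH PA (SD, n = 8) and 193 ± 71.8 in CONTROL (SD, n = 3). For CLDN4 the same difference was 1.06 ± 0.37, and the disc means were 673 and 652 CPM. For SGK1 it was -0.78 ± 0.30, with disc means of 85.6 and 107 CPM. SREBF1 had 0.34 ± 0.34, and its disc means of 130.3 and 67.3 CPM lay in the same order as in extraembryonic tissue. The adjusted p of these differences ran from 0.545 to 0.739. These genes were named by their p in the extraembryonic comparison itself, so their differences from the disc are given as a description.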

How the data were processed

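Messenger RNA libraries (stranded, paired reads, per the labels' protocols) were counted by the authors. The submitters' processing notes name genome build UMD3.1 and DESeq2 1.10.1. The aligner and the strand setting of the counting were not given in the sources used here. Deposited values are unscaled, whole-number counts for 24596 features in 53 libraries: reads in exons (used for all tests), uniquely placed exon reads (an alternative) and intron reads (a share per library). The table also gives exon lengths and coordinates, which per the file headers are the authors' annotation. Of 1378 pairs of libraries 0 were identical.

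Extraembryonic libraries were grouped by their labels. The fit used edgeR 4.0.16 (TMM scaling, filterByExpr for low counts, quasi-likelihood test) with medium and sex as terms, over 8 HIGH PA, 4 CONTROL and 13 BASAL libraries. A BASAL library of 9810 reads was left out by a minimum of 100000, and the spherical and undissected HIGH PA samples by their labels. Dividing the size of a log2 fold change by the square root of its F statistic gave the SE. The threshold for a call was an adjusted p (Benjamini-Hochberg) of 0.05. CPM was computed on total exon reads. Library measures were compared by exact two-sided permutation over 495 splits (smallest possible p 0.00202). The tests were tried on simulated data.

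Features without a gene name were counted but not named. Among the rest, named genes were the 8 of lowest p in each direction, the member of lowest p in each list, and preset genes. Other list members with an unadjusted p under 0.05, and DAB2, were named after their values were seen, and some members that count in a list are not reported here by name. The members and lists were chosen with earlier results of these data known. Alternatives were DESeq2 1.42.0, its size factors in edgeR, no filter, uniquely placed reads, both groups alone, the shallow library kept, no sex term, shape as a term, tubular or male embryos only, recipient cow as a block, counts added up within a flush, limma 3.58.1 with embryos of a flush correlated, cow 813 alone, a library label term, and each library and cow left out. Chosen after seeing the data were leaving out libraries with the mark 2 or the 5 libraries apart on the first principal component, and lane 4 alone. Exon reads per library, 3883850 to 19533821, set the counting precision, and the labels name no molecular identifiers. Analyses used R 4.3.3, Python 3.11.15 and matplotlib 3.10.9.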

Additional observations from a re-analysis of the deposited data

Results flagged for a closer look

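Single libraries lay far from the others of their group for 11 of 158 sets of values, by a gap that took an unusually large part of the group's range (Dixon's test at the 95% level, under which chance marks about 1 in 20 sets). In HIGH PA, replicate 1 had 18.8 CPM of TSTD1 (next highest 12.1) and 5.69 CPM of ACOX3 (next 3.35), and this library carried the mark 2. Replicate 3, also marked, had 37.4 CPM of DGAT1 (next 22.7). Replicate 6, the third marked library, had 1019 CPM of FOS (next 619), which placed it within CONTROL. Replicate 4 had 20.9 CPM of CYP1A1 (next 5.35). Replicate 7, the HIGH PA embryo of cow 813, had the highest summed trophectoderm markers, 33313 CPM (next 25915). In CONTROL, the ovoid replicate 4 was highest for PLAU (105 CPM, next 63.4), PLIN2 (102 CPM, next 72.8), PPARD (24.1 CPM, next 15.7) and the summed trophectoderm markers (29133 CPM, next 19456). CONTROL replicate 2 had the lowest CCNE2 level (15 CPM, next 17.6).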

How the results depend on the processing

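The count of 0 genes called between HIGH PA and CONTROL held in 31 of 34 alternatives, where 46 to 2227 genes had an unadjusted p under 0.05 over all 34. DESeq2 called 1 gene (NPSR1), tubular embryos alone 2 and cow 813 alone 71. Leaving out 1 HIGH PA or CONTROL library at a time gave 0 to 0 calls there, 1 HIGH PA library 0 to 1 against BASAL (1 without HIGH PA replicate 6), 1 CONTROL library 0 to 0 for BASAL against CONTROL, and 1 of CONTROL embryos 1 to 3 0 to 0 for the tissue difference; BASAL libraries, and HIGH PA libraries in the tissue difference, were not left out singly. Against BASAL 1 gene, CAMKV, was called by DESeq2, with the shallow library kept, without the HIGH PA embryos of cow 07 and without the 5 libraries apart. BASAL against CONTROL gave 1 call by DESeq2 (NPSR1) and 3 in cow 813 alone, and the tissue difference 1 by DESeq2 (CCDC85B). With recipient cow as a replicate block 0 genes were called in each comparison of media; of 67 genes followed the block took 16 below the main log2 fold change divided by 1.5, among them STAR (0.11) and APOA2 (0.75) and, with its sign changed, PPARG (0.13), and 5 above 1.5 times it.

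Genes without overlap, 144 over all libraries, numbered 2022 in tubular embryos (4 against 3), 886 in males and, over the same 10961 genes, 450 without the marked libraries (443 of the 10853 that pass the read filter there), where fewer libraries were compared, and 147 to 663 with 1 library left out (663 without CONTROL replicate 4). Of 67 genes followed, 62 kept their sign in every alternative. Leaving out HIGH PA replicate 7 and leaving out the HIGH PA embryos of cow 813 were the same fit. The 34 alternatives count it under both names. PPARG was at 0.44 in tubular embryos, 0.13 summed per flush, 0.91 in cow 813, 0.24 without cow 72, 0.08 without cow 07, 0.23 without the marked libraries and -0.58 to 0.13 with 1 library left out. PLIN2 was at -0.23 with both groups alone, -0.01 without the sex term, -0.16 with the flush block, -0.12 with the label term, -0.05, -0.17 and -0.04 without cows 07, 13 and 813, -0.10 without the 5 libraries apart and -0.06 to 0.28 with 1 library left out. In cow 813 alone ELF3 was at -0.23, STAR at -1.01 and AQP3 at -0.43. The cause was not tested. Differences of library measures (HIGH PA minus CONTROL) that changed sign were the intron share (-0.296 percentage points in tubular embryos, -0.228 without the marked libraries), the mitochondrial share (-0.753 and -0.415), uterine markers without MUC1 (0.0368 CPM in tubular embryos), epiblast markers (-0.127 CPM in uniquely placed reads) and maternal blood markers (-0.759 CPM without the marked libraries). With 1 library left out, epiblast markers ran from -3.62 to 4.45 CPM, hypoblast markers from -65.6 to 159 CPM, uterine markers without MUC1 from -0.679 to 0.0111 CPM and the uniquely placed share from -0.0501 to 0.147 percentage points. No library measure passed an adjusted p of 0.05 in any alternative. With 4 CONTROL embryos of 1 flush, differences smaller than about 0.526 on the log2 scale lay within the interval of a typical gene. That interval counts embryos as independent and does not include the spread between flushes.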

Other observations

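A further 4 HIGH PA libraries were left out of every comparison by their shape or dissection: 2 extraembryonic samples of spherical embryos (340016 and 1068407 exon reads) and 2 undissected embryos (1407380 and 3138755 exon reads). SGK1 was at 8.82 and 62.7 CPM in the spherical samples and 47.6 and 91.4 CPM in the undissected embryos, below the lowest CONTROL library of 157 CPM in all 4. STAR was at 55.9 and 152 CPM in the spherical samples and 57.6 and 52.9 CPM in the undissected embryos, against a CONTROL maximum of 6.22 CPM. MUC1 was at 88.2 and 18.7 CPM in the spherical samples, from 30 and 20 reads, and at 9.24 and 13.7 CPM in the undissected embryos, against a CONTROL maximum of 4.94 CPM. IFNT2 was at 247 and 47.7 CPM in the spherical samples and 71.1 and 171 CPM in the undissected embryos, below the lowest CONTROL library of 659 CPM. PLAU was at 718 and 44 CPM in the spherical samples and 61.1 and 1087 CPM in the undissected embryos, on both sides of the CONTROL range of 59.0 to 105 CPM. Both spherical samples and 1 undissected embryo, also spherical, differed from CONTROL in shape as well as medium, and both undissected embryos, of which the other was ovoid, contained the disc, so these cannot be told apart from the medium.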
